A study of Nicotiana tabacum with 9 samples.

Results

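Leaf RNA of the tobacco (Nicotiana tabacum) material labelled KY was compared with leaf RNA of K326, a flue-cured tobacco cultivar, by RNA sequencing. The comparison uses 6 of the 9 libraries of the series, 3 of each genotype, chosen by their labels. The other 3 libraries, from the genotype labelled Y, are given as values beside some results. All 9 libraries are labelled leaf tissue, and no treatment, age, leaf position or growth condition is given. The origin of Y and KY, their relation to K326 and the source of the replicates (separate plants or not) are absent from the labels. The p-values below therefore measure the spread between libraries, which may be partly technical. In leaf RNA as a whole, fewer cells of a type and less RNA per cell cannot be told apart.

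By its title, the study is about DHNA, a gene of folate synthesis, and the yellowing of leaves. Dihydroneopterin aldolase makes the pterin portion of folate, the cofactor that carries single carbon units for nucleotide, methionine and glycine metabolism. Leaves are green because chlorophyll synthesis, in which magnesium chelatase takes the first committed step, outweighs breakdown, in which pheophorbide a oxygenase opens the chlorophyll ring. Tobacco is an allotetraploid: many genes occur as near-identical copies, one from each ancestral genome, and the value of a single copy depends on how reads were divided between them. Gene names below are the protein domain descriptions deposited beside each Nitab4.5 gene identifier, and the digits before the letter g in an identifier number the genome scaffold.

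Each value is the authors' deposited expression signal of a gene in a library, a quantity that is never negative and whose unit is not named. The signal summed to 551496 to 603165 per library, 30510 to 33397 genes were above 0, and read depth is unknown. The rubisco small subunit, a marker of leaf mesophyll, took 11.7% to 13.2% of the signal in K326 and 12.7% to 13.3% in KY. The KY libraries were not alike. Across tested genes, which are not independent replicates, the log2(signal + 1) values of KY replicate 1 correlated at 0.899 and 0.939 with KY replicates 2 and 3 and at 0.953 with K326 replicate 3, its closest library. KY replicates 2 and 3 correlated at 0.955, and the K326 libraries at 0.946 to 0.959. Counts of calls are therefore also given with KY replicates 2 and 3 alone, and the plot of list medians shows that value for every list.

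Few genes separated KY from K326, and most of those were lower in KY. Of 69500 genes in the table, 16415 averaged 1 or more in these 6 libraries and were tested with limma on log2(signal + 1). At a Benjamini-Hochberg adjusted p below 0.05, the threshold at which a gene is called here, 100 genes (0.609% of those tested) differed. KY was higher in 27 (0.164%) and lower in 73 (0.445%), and 26 (0.158%) and all 73 of these differed by at least 2-fold. In each of the 100 genes no KY library overlapped any K326 library, and among all tested genes the groups did not overlap in 518 higher in KY (3.16%) and 2034 lower (12.4%). The median difference over all tested genes was -0.14, and it was 0.00 after median-of-ratios scaling, so that list medians below are read against -0.14. At an unadjusted limma p below 0.05, 344 of the 16415 tested genes were higher and 1275 lower in KY. List counts at that threshold are read against these, since lower genes prevailed throughout.

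Many of the called differences were between a clear signal and almost none. All 3 KY libraries lay below 0.5 in 45 of the 73 lower genes, and all 3 K326 libraries lay below 0.5 in 13 of the 27 higher genes. Among all tested genes, 21 (0.128%) were listed at 0 in every KY library and at 1 or more in every K326 library, and 12 (0.0731%) showed the reverse. A listed 0 does not exclude transcripts, and the log2 difference of such a gene depends on the added 1 and is no bound on its fold. Of the 100 genes, 13 are described only as Unknown.

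With KY replicates 2 and 3 alone, 211 genes (1.29%) were called, 55 higher (0.335%) and 156 lower (0.95%), of which 54 (0.329%) and 153 (0.932%) differed by at least 2-fold. Of the 100 genes called with all 6 libraries, 90 were called again, 10 were not, and 121 others were called only without KY replicate 1. Leaving out another library gave fewer calls: 13, 10 and 12 higher and 45, 47 and 52 lower without K326 replicate 1, 2 or 3, and 17 and 10 higher and 55 and 44 lower without KY replicate 2 or 3.

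The only dihydroneopterin aldolase gene with signal, Nitab4.5_0008674g0010, fell from a moderate level in K326 to a listed 0 in KY. Its signal was 15.3, 19.5 and 9.09 in K326 replicates 1, 2 and 3, an order kept in all lists of library values below, and 0 in each of the 3 KY libraries. Every K326 library was above every KY library, and the 3 Y libraries were also at 0. The difference was -3.91 on the log2 scale (SE 0.27, adjusted p = 0.00133), it was -3.91 (adjusted p = 0.00789) with KY replicates 2 and 3, and the gene was called in all 18 alternative analyses. The other dihydroneopterin aldolase genes, Nitab4.5_0000677g0080 and Nitab4.5_0000936g0150, were listed at 0 in all 9 libraries.

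The rest of the folate list did not pass the test. Of 24 matching genes, 7 were tested and 1, the aldolase gene, was called, and the list's median was -0.06. The 2 genes for GTP cyclohydrolase I, the entry enzyme of pterin synthesis, had differences of -0.06 (Nitab4.5_0002671g0010) and 0.02 (Nitab4.5_0003020g0100). The gene Nitab4.5_0000231g0060, for the pyrophosphokinase and dihydropteroate synthase steps that follow the aldolase, had -0.14 at signals of 0.25 to 1.66. Dihydrofolate reductase with thymidylate synthase, Nitab4.5_0000308g0320, which recycles and uses folate, had 4.54, 4.05 and 5.23 in K326 and 4.13, 2.7 and 2.66 in KY, a difference of -0.44 (adjusted p = 0.521). The member with the highest difference was gamma-glutamyl hydrolase, Nitab4.5_0000383g0060, which trims the glutamate tail of folates. Its signal was 4.55, 2.4 and 2.81 in K326 and 9.79, 14.3 and 10.1 in KY, without overlap, at a difference of 1.56 (SE 0.25, adjusted p = 0.0684). The remaining member, Nitab4.5_0012814g0010, is an isoprenoid synthesis enzyme that matched by a dihydropteroate synthase-like fold, with a difference of 0.40. Outside the list, and chosen after its values were seen, a gene described as transcriptional coactivator/pterin dehydratase (Nitab4.5_0000206g0170) fell from 6.62, 9.8 and 4.7 to 0.93, 0.46 and 0.79 (-2.18, SE 0.27, adjusted p = 0.0229). That call was lost without K326 replicate 1 or 2 (adjusted p = 0.128 and 0.066) or KY replicate 2 or 3 (adjusted p = 0.0818 and 0.124). Other tested genes of that description had far more signal and were not called. Nitab4.5_0000103g0120 had 99, 90.65 and 146 in K326 and 143, 81 and 90.1 in KY (-0.11, adjusted p = 0.895). Nitab4.5_0001130g0110 had 277, 313 and 319 against 318, 247 and 265 (-0.13, adjusted p = 0.77). Of 47 tested genes of one-carbon metabolism and the methyl cycle, which use folates, 0 were called by limma, 2 were higher and 4 lower at an unadjusted p below 0.05, and the median was -0.04, with 1 called lower without KY replicate 1. The members with the highest signal, both described as glycine cleavage T-proteins, which pass a carbon unit to folate, had 534, 582 and 644 in K326 and 620, 625 and 679 in KY (Nitab4.5_0002695g0040) and 453, 501 and 560 against 505, 537 and 592 (Nitab4.5_0007963g0010).

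The gene next to the aldolase on its scaffold fell as well. Nitab4.5_0008674g0020, with an Ataxin-2 C-terminal domain found in RNA-binding proteins, had 16.6, 22.2 and 14.9 in K326 and 0.05, 0 and 0.14 in KY. The Y libraries also had 0.05, 0 and 0.14. All 3 K326 libraries were far above KY, and the difference was -4.14 (SE 0.19, adjusted p = 0.000218). These 2 were the only tested genes of the 3 listed on scaffold 0008674. Another Ataxin-2 gene, Nitab4.5_0000677g0040, shares its scaffold with one of the aldolase copies listed at 0. It had 101, 134 and 93.4 in K326 and 94.8, 128 and 103 in KY, overlapping throughout (-0.01, adjusted p = 0.991).

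Some of the called genes shared a scaffold. The 100 called genes lay on 80 of the 6954 scaffolds with tested genes. Of the 3433 scaffolds with 2 or more tested genes, 12 carried 2 or more called genes. Those 12 held 32 called genes, 30 lower and 2 higher in KY. On 7 of the 12 every tested gene was called lower, 20 genes in all. Those were few of the genes listed: 6 of 31 on scaffold 0000826, 4 of 26 on 0000733 and 2 on each of the others. Untested genes with some signal numbered 15 on 0000826 and 12 on 0000733. Genes near 0 in KY reached the tested mean only through K326, so nothing follows for whole scaffolds. The scaffold genes named here beyond those of the gene lists were chosen after their values were seen, and nothing was tested about the grouping itself.

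On scaffold 0000826 all 6 tested genes fell. S-formylglutathione hydrolase (Nitab4.5_0000826g0060), which completes formaldehyde detoxification, went from 13.5, 11.9 and 15.6 in K326 to 0 in all 3 KY libraries (-3.87, adjusted p = 0.000161). BRX1 (Nitab4.5_0000826g0070), which in yeast helps to build the large ribosomal subunit, went from 19.6, 14.5 and 17.3 to 0.05, 0.06 and 0.04 (-4.10, SE 0.17, adjusted p = 0.000148). A triose-phosphate transporter domain gene (Nitab4.5_0000826g0190), glycerol-3-phosphate dehydrogenase (Nitab4.5_0000826g0200) and an Unknown gene (Nitab4.5_0000826g0210) were at 2.95 to 12.1 in K326 and at 0 in every KY library. The nuclear pore gene Nup93 (Nitab4.5_0000826g0280) fell from 7.25, 7.32 and 6.72 to 0.08, 0.02 and 0.02 (-2.96). No KY library had a signal above 0.08 in any of the 6 genes, KY replicate 1 included. The Y libraries were near 0 as well, at no more than 0.09 in any of the 6.

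Scaffold 0001618 carries genes with the same descriptions, and there the values in KY were not lower. Its S-formylglutathione hydrolase (Nitab4.5_0001618g0150) had 5.62, 1.53 and 9.64 in K326 and 11.3, 4.16 and 7.74 in KY (0.54, adjusted p = 0.75). Its BRX1 gene (Nitab4.5_0001618g0180) had 11, 8.11 and 10.6 against 20.9, 16.6 and 12.3 (0.67, adjusted p = 0.437). Its glycerol-3-phosphate dehydrogenase (Nitab4.5_0001618g0270) had 4.11, 6.3 and 4.78 against 13.2, 9.24 and 11.1 (1.01, adjusted p = 0.168). None of these 3 genes was called, though the BRX1 and dehydrogenase groups did not overlap. A gene there with an RNA recognition motif and a CCCH zinc finger (Nitab4.5_0001618g0050) rose from 13, 11.6 and 11.8 to 24.7, 27.7 and 25.9 (1.04, adjusted p = 0.0394), a call lost without any 1 library other than KY replicate 1 (adjusted p = 0.127 to 0.228). Summed over both copies and any other gene of that description, S-formylglutathione hydrolase signal was 19.2, 13.4 and 25.3 in K326 and 11.3, 4.16 and 7.74 in KY.

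On scaffold 0000733 all 4 tested genes fell: a magnesium chelatase gene described below, a remorin (Nitab4.5_0000733g0190, -2.68), a B3 DNA-binding domain gene (Nitab4.5_0000733g0200, -2.52) and an AN1 zinc finger gene (Nitab4.5_0000733g0090, -2.01). The AN1 gene lost its call without K326 replicate 2 or 3 (adjusted p = 0.0623 and 0.0555) or KY replicate 3 (adjusted p = 0.0555). Remorins are plasma membrane proteins of plants. The remorin had 5.7, 7.35 and 4.04 in K326 and at most 0.04 in KY. In Y, too, no library exceeded 0.08 in any of the 4 genes. Scaffold 0001663 holds another remorin, Nitab4.5_0001663g0020, at 24.1, 32.1 and 18.3 in K326 and 35.9, 27.1 and 33.7 in KY (0.39, adjusted p = 0.609). The gene for elongation factor 4 there, Nitab4.5_0001663g0160, rose from 67.9, 80.7 and 89.7 to 175, 170 and 186 (1.16, adjusted p = 0.0343), a call lost without any 1 library other than KY replicate 1 (adjusted p = 0.0795 to 0.215).

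Other scaffolds were mixed. Scaffold 0000188 carried 10 tested genes, of which 7 were not called. A basic-leucine zipper gene there (Nitab4.5_0000188g0190) was at 0 in K326 and at 3.01, 2.82 and 3.61 in KY (2.05, adjusted p = 0.00535, and 0.0623 without KY replicate 3). An ankyrin repeat gene on it (Nitab4.5_0000188g0250) fell by 1.48 on the log2 scale. In Y the zipper gene had 2.38, 2.19 and 4.32 and the ankyrin gene 3.35, 3.31 and 2.85, close to KY. Scaffold 0000363 carried 12 tested genes. A Pin2-type proteinase inhibitor (Nitab4.5_0000363g0010) and a protein phosphatase 2C gene (Nitab4.5_0000363g0030, -3.01) fell, an SBP-box transcription factor gene (Nitab4.5_0000363g0110, 1.62) rose, and 9 were not called. The ankyrin and SBP-box genes lost their calls without any 1 library other than KY replicate 1, at adjusted p-values of 0.0973 to 0.195 and 0.11 to 0.204. Among those 9, the CP12 gene Nitab4.5_0000363g0260, which regulates Calvin cycle enzymes in the dark, had 527, 506 and 586 in K326 and 374, 371 and 402 in KY, without overlap (-0.49, adjusted p = 0.27).

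**Figure D1:**
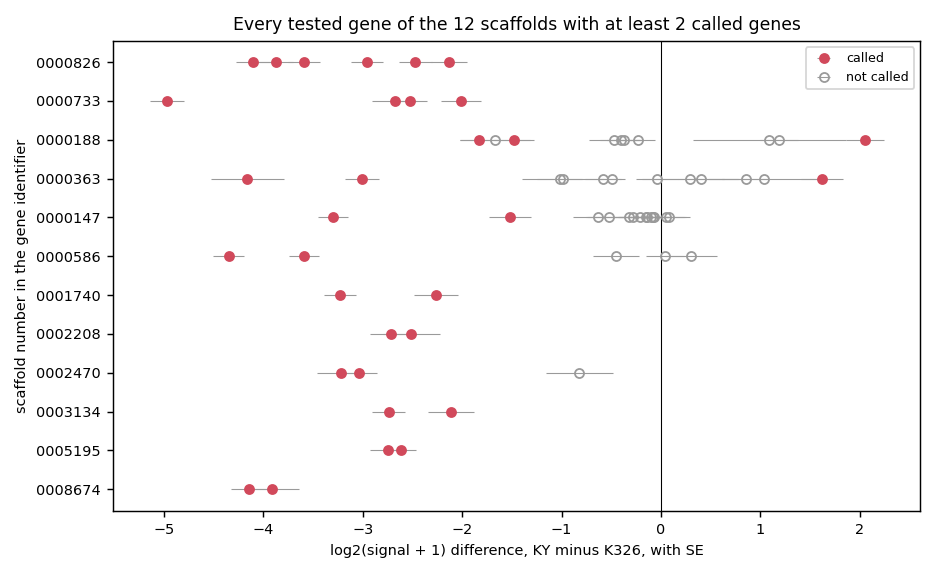
Difference between KY and K326 on the log2(signal + 1) scale, with its SE, for every tested gene of the 12 scaffolds with at least 2 called genes, by scaffold number. Filled points are called genes and open points are not; on 7 scaffolds all points are filled and below 0, while on 0000147 12 of 14 genes are not called.

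Across the genome, 21 of the called lower genes had 1 to 4 other tested genes with the identical description, 50 genes in all. Of these 50, 19 had a difference above 0 and 1 was called, a PC4 coactivator gene described below. Over all tested genes 30.5% lay above 0 and 0.609% were called, and nothing was tested about such copies as a set. Reads that could fit more than 1 copy are divided by rules not given in the sources used here, so the split between copies is uncertain.

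Chlorophyll synthesis genes were not lower in KY as a list, while 1 magnesium chelatase gene fell to near 0. Of 27 tested members, 0 were called higher and 1 lower, 20 lay above 0, and the median was 0.23 (0.07 with KY replicates 2 and 3, and 0.43 without KY replicate 2). The called gene, Nitab4.5_0000733g0210, is described as magnesium chelatase with a ChlI subunit signature and a von Willebrand factor type A domain. Its signal was 29.3, 28.2 and 38.1 in K326 and 0.03, 0.07 and 0.03 in KY (-4.97, SE 0.17, adjusted p = 0.000132), and the Y libraries were at 0.03, 0.01 and 0. The groups did not overlap, and the call stood in all 18 alternatives. The gene described as subunit D, Nitab4.5_0001663g0090, had 39, 41.6 and 47.4 in K326 and 93, 70.3 and 84.5 in KY, without overlap (0.93, SE 0.17, adjusted p = 0.127). The gene described as subunit I, Nitab4.5_0006237g0030, had 97.4, 76.4 and 155 against 168, 94.3 and 137 (0.30, adjusted p = 0.758). Summed over the family, magnesium chelatase signal was 166, 146 and 240 in K326 and 261, 165 and 221 in KY, so the family totals overlapped.

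Later steps of the pathway showed no call. The 2 genes with the highest signal, for the oxidative cyclase that closes the fifth ring of chlorophyll, had 1110, 1197 and 1358 in K326 against 1466, 1590 and 1640 in KY (Nitab4.5_0000123g0170, 0.36, adjusted p = 0.436) and 824, 916 and 986 against 1119, 1078 and 1213 (Nitab4.5_0001270g0120, 0.32, adjusted p = 0.47). Both sets were higher in every KY library without passing the test. Chlorophyll synthase, Nitab4.5_0000261g0130, the last step, had 71.2, 63.6 and 87.4 in K326 and 99.7, 76.3 and 88.2 in KY (0.25, adjusted p = 0.665). These members were chosen after their values were seen.

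Chlorophyll breakdown genes showed 1 call among 19 tested, 0 higher and 1 lower, with a median of 0.06 (-0.06 without K326 replicate 2). A pheophorbide a oxygenase gene of low signal, Nitab4.5_0003134g0120, had 2.96, 4.72 and 2.86 in K326 and 0, 0 and 0.09 in KY. All K326 values lay above KY, and the difference was -2.11 (SE 0.23, adjusted p = 0.0112). It did not pass without K326 replicate 1, 2 or 3 (adjusted p = 0.0588, 0.0525 and 0.0513) and without KY replicate 3 (adjusted p = 0.0681). Among the genes of that description with more signal, Nitab4.5_0002162g0210 had 34.7, 30.8 and 26.1 in K326 and 36, 60.1 and 54.9 in KY (0.68, adjusted p = 0.438). The sum over all genes with pheophorbide a oxygenase in their description was 184, 182 and 180 in K326 and 218, 249 and 248 in KY, without overlap. Some of these genes also carry an aromatic-ring-hydroxylating dioxygenase signature. The description does not show which of them open the chlorophyll ring. The staygreen gene with the highest signal, Nitab4.5_0000847g0060, whose product starts chlorophyll breakdown by removing magnesium, had 132, 141 and 126 against 140, 157 and 140 (0.13, adjusted p = 0.75).

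Carotenoid and plastid isoprenoid synthesis, the other leaf pigment list, had 0 calls by limma among 27 tested genes and a median of 0.01, with 1 higher and 2 lower at an unadjusted p below 0.05. Its members with the highest signal are both described as squalene/phytoene synthase, the description of the entry enzyme of carotenoid synthesis. Nitab4.5_0000091g0360 had 282, 301 and 324 in K326 and 261, 240 and 208 in KY (-0.36, adjusted p = 0.494), and Nitab4.5_0000483g0270 had 167, 191 and 186 against 155, 228 and 249 (0.19, adjusted p = 0.764).

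Photosynthesis genes were slightly higher in KY as lists, with few single calls. Of 71 tested light-harvesting antenna genes, which bind chlorophyll around the photosystems, 0 were called by limma, 59 lay above 0, 15 were higher and 1 lower at an unadjusted p below 0.05, and the median was 0.25. It was 0.21 without KY replicate 1, 0.46 without KY replicate 2, and 0.16 and 0.40 without K326 replicate 1 or 3. Over all tested genes 30.5% lay above 0. The summed antenna signal was 31690, 38187 and 43303 in K326 and 54569, 37526 and 55068 in KY, so that KY replicate 2 lay inside the range of K326. The antenna genes with the smallest adjusted p included Nitab4.5_0000982g0170, at 261, 357 and 381 against 677, 665 and 949, without overlap (1.19, adjusted p = 0.114). Of 105 photosystem and electron transport genes, 0 were called, 4 were higher and 1 lower at an unadjusted p below 0.05, 81 lay above 0, and the median was 0.17 (0.18 without KY replicate 1 and 0.09 without KY replicate 3). The PsbR gene Nitab4.5_0002475g0030, of photosystem II, had 5059, 5865 and 5222 in K326 and 5073, 7004 and 6477 in KY (0.19, adjusted p = 0.672). The median of both lists stayed above 0 in all 18 alternatives.

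Among 60 Calvin cycle genes, 1 rose, 1 fell, and the median was 0.06. The transketolase gene Nitab4.5_0001329g0110, whose product moves carbon units between sugar phosphates to rebuild the carbon dioxide acceptor, had 509, 463 and 539 in K326 and 51.4, 70.4 and 62.6 in KY. The 3 KY libraries were all far below both other genotypes, since Y had 509, 626 and 526. The mean was 504 ± 38.2 in K326 and 61.5 ± 9.53 in KY (SD, n = 3), 8.19-fold lower, and the log2 difference was -3.02 (SE 0.17, adjusted p = 0.000472), or -2.90 (adjusted p = 0.00119) with KY replicates 2 and 3. It was called in all 18 alternatives.

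Other transketolase genes did not differ by the test. Nitab4.5_0003912g0020 had 583, 529 and 644 in K326 and 596, 703 and 653 in KY (0.15, adjusted p = 0.715). Nitab4.5_0005868g0010 had 57.8, 48.6 and 52.5 against 49.1, 49.9 and 51.2 (-0.08, adjusted p = 0.856). The family's summed signal was 1151, 1040 and 1235 in K326 and 697, 823 and 767 in KY, 66.8% of K326, and the sums did not overlap.

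The called rubisco small subunit gene, Nitab4.5_0000912g0250, had 963, 988 and 1011 in K326 and 1726, 2099 and 2078 in KY. Each KY library was above each K326 library, and the ratio of the means was 1.99-fold (0.99, SE 0.12, adjusted p = 0.0238). It did not pass in 11 of 18 alternatives, including median-of-ratios scaling (adjusted p = 0.0643), quantile normalization (adjusted p = 0.117) and the analyses without K326 replicate 1, 2 or 3 (adjusted p = 0.135, 0.164 and 0.101) or KY replicate 2 or 3 (adjusted p = 0.0932 and 0.176). Summed over the small subunit family, the share of signal overlapped between K326 and KY, as given above.

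**Figure D2:**
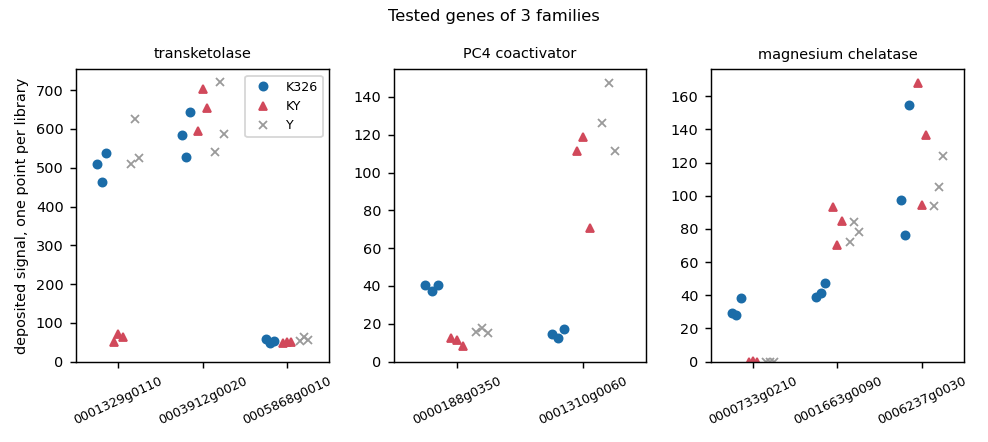
Deposited signal in each library of K326 (circles), KY (triangles) and Y (crosses) for the tested genes of 3 families, transketolase, PC4 coactivator and magnesium chelatase. In transketolase and magnesium chelatase 1 gene is called lower in KY than in K326 and the others are not called. The 2 PC4 genes differ in opposite directions.

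PC4 coactivators, which bind single-stranded DNA during transcription, were called in both directions. Nitab4.5_0001310g0060 rose from 14.5, 12.3 and 17.2 to 111, 119 and 70.5, a 6.82-fold ratio of the means (2.66, SE 0.25, adjusted p = 0.00536). Nitab4.5_0000188g0350, chosen after its values were seen, fell from 40.6, 37.5 and 40.8 to 12.3, 11.3 and 8.1, a 3.75-fold ratio (-1.83, adjusted p = 0.00974). Neither pair of groups overlapped. With KY replicate 1 and K326 replicate 3 both left out, the first gene had an adjusted p of 0.0616, and the second lost its call without K326 replicate 1, 2 or 3 (adjusted p = 0.0805, 0.0644 and 0.065).

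Some called genes also separated KY from Y, but most did not. In a fit of all 9 libraries, 187 genes (1.14%) were called between KY and Y. Of the 100 genes called against K326, 15 were also called between KY and Y. That contrast shares the KY libraries with the one above, so its values are given only side by side, for genes chosen after their values were seen. The transketolase gene Nitab4.5_0001329g0110 differed by -3.16 from Y (adjusted p = 1.8e-05). A basic-leucine zipper gene with a G-box binding domain, Nitab4.5_0002262g0160, had 8.84, 9.7 and 9.27 in K326, 3.15, 2.84 and 4.13 in KY and 34.1, 27.5 and 24 in Y. KY was lowest and Y highest, at -1.24 against K326 (adjusted p = 0.0343, and 0.0508 to 0.202 without any 1 library) and -2.75 against Y (adjusted p = 9.41e-05). A UPF0114 gene of unknown function, Nitab4.5_0000986g0060, kept the same order, with 4.12, 4.56 and 4.07 in K326, 0.95, 1.02 and 0.96 in KY and 6.16, 6.79 and 12.2 in Y (-1.41 against K326, adjusted p = 0.0122, and 0.0505 to 0.0979 without any 1 library other than KY replicate 1).

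A SINA-type E3 ubiquitin ligase gene, Nitab4.5_0000258g0230, whose product tags proteins for degradation, had 8.39, 8.66 and 9.01 in K326 and 2, 1.62 and 1.76 in KY. Y had 7.98, 7.85 and 7.83, close to K326, and the differences were -1.80 against K326 (adjusted p = 0.00294) and -1.67 against Y (adjusted p = 0.000355). A gene with an RNA recognition motif and a DAHP synthetase domain, the entry enzyme of aromatic amino acid synthesis, Nitab4.5_0002401g0040, had 6.71, 7.46 and 10.2 in K326, 0.46, 0.24 and 0.34 in KY and 9.87, 9.43 and 12.2 in Y (-2.74 against K326, adjusted p = 0.0016). A mitochondrial carrier described as an uncoupling protein, Nitab4.5_0010196g0040, had 31, 26.1 and 31.9 in K326, 0, 0.19 and 1.32 in KY and 8.56, 14.2 and 19.6 in Y. Here Y lay between K326 and KY (-4.45 against K326, SE 0.32, adjusted p = 0.0016, and -3.36 against Y, adjusted p = 0.00211). Summed over the 7 uncoupling protein genes, the signal was 124, 102 and 112 in K326 and 65.8, 34.8 and 47.5 in KY.

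In the other direction, KY stood above both K326 and Y in a gene with a Wax2 C-terminal domain, known from proteins of cuticular wax synthesis in Arabidopsis. Nitab4.5_0020701g0010 had 0.78, 1.43 and 0.36 in K326, 13.7, 18.2 and 18.8 in KY and 1.31, 1.99 and 0.46 in Y. Its mean was 19.7-fold that of K326 (3.30, SE 0.25, adjusted p = 0.00207, called in all 18 alternatives), and it was 3.04 above Y (adjusted p = 0.00165). A SWEET gene, Nitab4.5_0007236g0030, of a family that lets sugars leave cells, had 22, 16.7 and 17.6 in K326, 45.5, 44.9 and 43.9 in KY and 20.1, 15.3 and 21.5 in Y. The KY libraries were close together at 2.39 times the mean of K326 (1.22, SE 0.16, adjusted p = 0.0329) and 1.21 above Y (adjusted p = 0.0115). It did not pass without K326 replicate 1, 2 or 3 (adjusted p = 0.0869, 0.186 and 0.15) and without KY replicate 2 or 3 (adjusted p = 0.107 and 0.19).

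An F-box gene, Nitab4.5_0001863g0050, of the family that selects proteins for ubiquitination, had 0.21, 0.12 and 0.06 in K326, 2.66, 3.34 and 3.57 in KY and 0.45, 0 and 0 in Y (1.89 against K326, adjusted p = 0.00887, and 1.88 against Y, adjusted p = 0.00295). It was the 1 call among 151 F-box genes, and it was lost without K326 replicate 2 (adjusted p = 0.0534) or KY replicate 2 or 3 (adjusted p = 0.0535 and 0.0891).

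The called genes with the lowest differences included some that kept a little signal in KY and others that kept almost none. A CRAL-TRIO gene, Nitab4.5_0000976g0100, of a family of lipid-binding proteins, fell from 42.6, 35.5 and 43.3 to 0.03, 0.03 and 0 (-5.34, SE 0.15, adjusted p = 0.000113). A gene described only by an NAD(P)-binding domain, Nitab4.5_0000102g0310, fell from 66.7, 68.9 and 69.2 to 2.18, 1.28 and 1.65, a 40.1-fold ratio of the means (-4.69, SE 0.17, adjusted p = 0.000132). Neither overlapped, and both were called in all 18 alternatives.

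Among genes of the actin skeleton, villin (Nitab4.5_0000586g0070), which bundles and cuts actin filaments, fell from 22.2, 20.5 and 16.9 to 0.01, 0.01 and 0.04 (-4.35, SE 0.16, adjusted p = 0.000132). The Y libraries had 0 to 0.03 in that gene. The villin family's sum was 31.5, 29.7 and 24.6 in K326 and 6.66, 12.2 and 7.28 in KY. Cofilin (Nitab4.5_0008504g0030), which severs actin filaments, rose from 14.6, 8.16 and 11.7 to 58.2, 55.5 and 45.2 (2.14, SE 0.24, adjusted p = 0.0125). Every cofilin value in KY was above every value in K326, but the call was lost without K326 replicate 3 (adjusted p = 0.0726) or KY replicate 2 or 3 (adjusted p = 0.0589 and 0.0623).

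In the redox lists, an ascorbate peroxidase gene, Nitab4.5_0011292g0010, of enzymes that remove hydrogen peroxide, fell from 26.6, 26.1 and 20.1 to 0 in all KY libraries (-4.65, SE 0.17, adjusted p = 0.000132). Y had 0, 11.8 and 0, so 1 Y library differed from the others. It was the 1 call among 178 antioxidant genes, whose median was -0.10 (1 called higher and 3 lower without KY replicate 1), and the ascorbate peroxidase family as a whole summed to 580, 513 and 669 in K326 and 579, 542 and 513 in KY. A glutathione S-transferase gene, Nitab4.5_0002470g0030, of enzymes that attach glutathione to toxic compounds, fell from 11.9, 13 and 11.2 to 0.61, 0.7 and 0 (-3.22, adjusted p = 0.00178) and was the 1 call among 56, at a list median of -0.11 (-0.17 without KY replicate 1).

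Other genes that fell were a cytochrome b5 type gene (Nitab4.5_0003151g0070), from 17.5, 14.3 and 14.9 to 0 (-4.05), and an EF-hand calcium-binding gene (Nitab4.5_0005031g0050), from 17.1, 21.6 and 19.9 to 0.14, 0.27 and 0.13 (-4.12). The Pin2 proteinase inhibitor Nitab4.5_0000363g0010, of a family that blocks the digestive proteases of insects, had 31.8, 13 and 11.4 in K326 and 0 in KY (-4.16, SE 0.37, adjusted p = 0.00431). K326 replicate 1 was well above the other K326 libraries. It was the 1 call among 55 proteinase inhibitor genes, whose median was -0.20.

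Cytochrome P450 genes, a large family of oxidases in plant secondary metabolism, had 0 higher and 2 lower among 99 tested and a median of -0.20. Without KY replicate 1 the median was -0.10, against -0.19 for all tested genes, with 3 called lower. Nitab4.5_0001182g0070 fell from 27.5, 30.4 and 21.3 to 5.68, 2.72 and 4.43 (-2.40, SE 0.26, adjusted p = 0.0119), and lost its call without K326 replicate 1 or 2 (adjusted p = 0.0844 and 0.0786) or KY replicate 3 (adjusted p = 0.0793). Nitab4.5_0000390g0030 fell from 2.65, 3.88 and 2.82 to 0.29, 0 and 0.1 (-1.86, adjusted p = 0.0169), and lost its call without any 1 library other than KY replicate 1, at adjusted p-values of 0.0616 to 0.106.

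Of the transcription factor lists, WRKY genes, regulators of defence and leaf ageing, had 1 call among 41, a gene of low signal (Nitab4.5_0000627g0060) that fell from 2.98, 3.42 and 3.24 to 0.29, 0.25 and 0.25 (-1.74, adjusted p = 0.00774). It did not pass when K326 replicate 1, 2 or 3 or KY replicate 3 was left out, at adjusted p-values of 0.0536 to 0.0624. Among 37 NAC, 163 MYB, 93 AP2/ERF and 10 MADS-box genes 0 were called by limma. At an unadjusted p below 0.05, 1 NAC gene was higher and 1 lower, 1 MYB gene was higher and 12 lower, 18 AP2/ERF genes were lower and 0 higher, and 1 MADS-box gene was lower. Over all 16415 tested genes the counts were 344 higher and 1275 lower. The AP2/ERF median was -0.30. Without KY replicate 1, 2 AP2/ERF genes and 1 MYB gene were called lower. The NAC gene with the highest signal, Nitab4.5_0000111g0160, had 21.1, 25.5 and 17.1 in K326 and 22.6, 43.1 and 37 in KY (0.63, adjusted p = 0.514).

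Members of 3 lists of defence-related families were among the genes that rose. The medians of the lectin and NB-ARC lists were near the -0.14 of all tested genes, and that of the chitinase list was below it. A mannose-binding lectin, Nitab4.5_0002977g0130, had 0, 0.39 and 0.32 in K326 and 6.3, 8.12 and 6.38 in KY (2.69, SE 0.21, adjusted p = 0.00206). In Nitab4.5_0000571g0030, described by a ricin B-type lectin domain, the values were 4.76, 5.53 and 3.43 against 25.2, 24.1 and 29, a 5.7-fold ratio (2.29, SE 0.20, adjusted p = 0.0037). Lectins bind sugars, often those of microbes or insects. These were the 2 calls among 16 lectin genes, whose median was -0.18, and without KY replicate 1 another was called lower.

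An NB-ARC gene, Nitab4.5_0021935g0010, of the family of intracellular immune receptors, had 0.01, 0 and 0 in K326 and 3.91, 8.3 and 4.87 in KY (2.68, SE 0.27, adjusted p = 0.00774). It was the 1 call among 24, whose median was -0.13 (-0.03 without KY replicate 1), and was lost without K326 replicate 1, 2 or 3 (adjusted p = 0.051, 0.0532 and 0.0516) or KY replicate 3 (adjusted p = 0.0606). A chitinase II gene, Nitab4.5_0000416g0240, of enzymes that cut fungal cell walls, had 7.02, 4.02 and 5.32 against 19.1, 16.6 and 27.7 (1.77, SE 0.26, adjusted p = 0.0479). Its groups did not overlap, but the call was lost in 15 of 18 alternatives, without KY replicate 1 at an adjusted p of 0.0559 and without any 1 other library at 0.0818 to 0.207. It was the 1 call among 84 chitinase and pathogenesis-related genes, whose median was -0.36 (-0.59 with KY replicates 2 and 3, where 3 others were called lower and 0 higher).

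Enzyme genes that rose were a glycoside hydrolase of family 1 (Nitab4.5_0003893g0030), from 3.28, 2.68 and 1.93 to 11.7, 12.6 and 11.2 (1.84, adjusted p = 0.00869), and a rhodanese-like gene (Nitab4.5_0009274g0040), from 0 to 6.83, 6.61 and 7.84 (3.01, adjusted p = 0.000472). The glycoside hydrolase lost its call without K326 replicate 2 (adjusted p = 0.0624) or KY replicate 3 (adjusted p = 0.0623). Other rises were weaker. An aldo/keto reductase, Nitab4.5_0000309g0040, had 16.7, 18.2 and 13.7 against 42.9, 46.2 and 36.9 (1.33, adjusted p = 0.0329). An acyltransferase of the type that moves fatty acids between phospholipids and storage lipid, Nitab4.5_0005915g0010, had 6.51, 7.74 and 6.44 against 15.5, 19.4 and 16.3 (1.19, adjusted p = 0.0385). Neither overlapped, and each lost its call without any 1 library other than KY replicate 1, at adjusted p-values of 0.11 to 0.187 and 0.114 to 0.246.

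**Figure D3:**
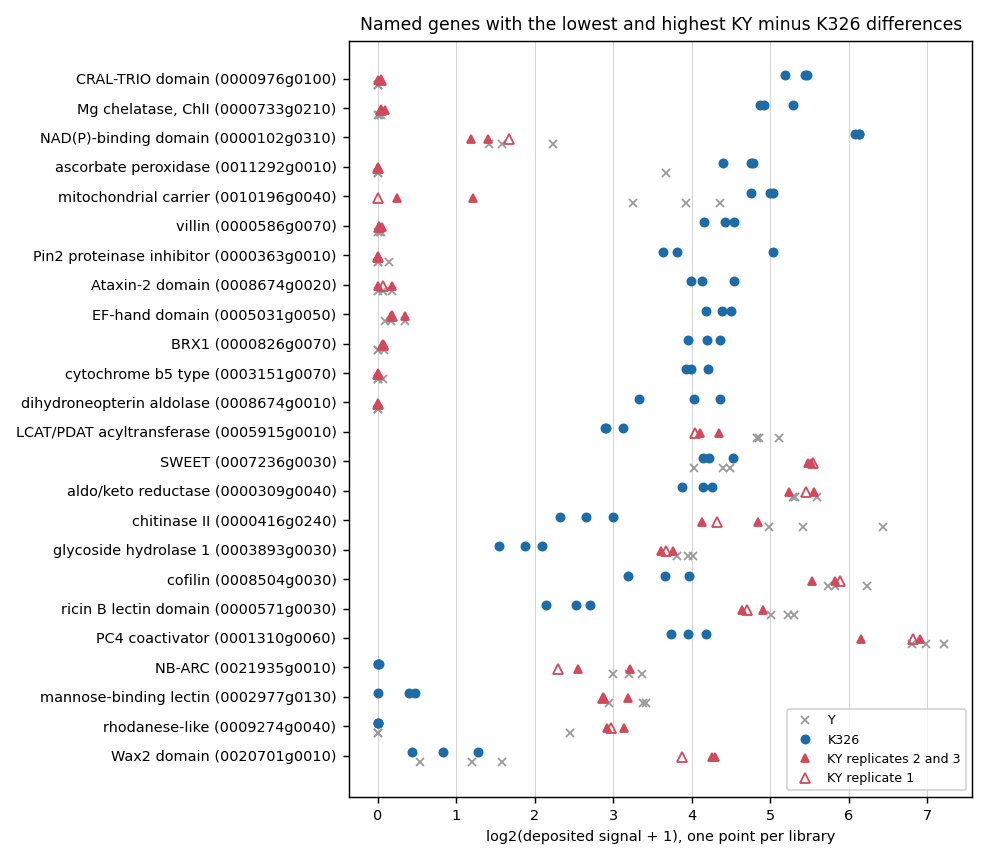
log2(signal + 1) in each library for the 12 called genes with the lowest and the 12 with the highest differences among described genes that averaged 5 or more in the higher genotype. KY replicate 1 is shown by open triangles and KY replicates 2 and 3 by filled triangles. The genes were chosen so that KY and K326 do not overlap, so KY replicate 1 lies on the KY side by that rule. In the SWEET and Wax2 genes the Y libraries (crosses) lie with K326.

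Growth genes split the KY libraries. Histone genes, whose products package DNA and are made mainly in dividing cells, had a mean log2(signal + 1) of 4.42, 4.06 and 4.87 in K326 and of 4.43, 3.01 and 3.36 in KY over 102 genes. KY replicate 1 lay within the K326 range, and KY replicates 2 and 3 lay below it. The list's median was -0.82 with 0 genes called by limma, 0 higher and 24 lower at an unadjusted p below 0.05, and it was -1.23 with 5 called lower when KY replicate 1 was left out. KY replicate 1 was above both other KY libraries in 91 of the 102 genes (89.2%), against 50.6% of all tested genes.

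Cytosolic ribosomal protein genes followed the same split. Their mean was 5.46, 5.13 and 5.69 in K326 and 5.87, 4.62 and 4.85 in KY over 200 genes, so KY replicate 1 was the highest of the 6 libraries and KY replicates 2 and 3 the lowest. The median was -0.34 with 0 calls by limma, 3 higher and 3 lower at an unadjusted p below 0.05. It was -0.74 with 3 called lower without KY replicate 1, and -0.07, above the -0.13 of all tested genes, without KY replicate 2. KY replicate 1 exceeded both others in 187 of the 200 (93.5%).

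Cell cycle and DNA replication genes had a median of -0.22 (-0.35 without KY replicate 1), and 0 of 60 were called, with 0 higher and 2 lower at an unadjusted p below 0.05. Among 119 genes of cell expansion and wall loosening, 1 was called, with a median of -0.22. That gene, described as cellulose synthase with a RING finger (Nitab4.5_0000268g0040), fell from 11.6, 12.4 and 9.63 to 4.17, 2.92 and 3.46 (-1.44, SE 0.18, adjusted p = 0.0254). Cellulose synthase spins the cellulose of the wall. It did not pass without K326 replicate 1, 2 or 3 (adjusted p = 0.16, 0.15 and 0.0669) and without KY replicate 2 or 3 (adjusted p = 0.0836 and 0.154).

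**Figure D4:**
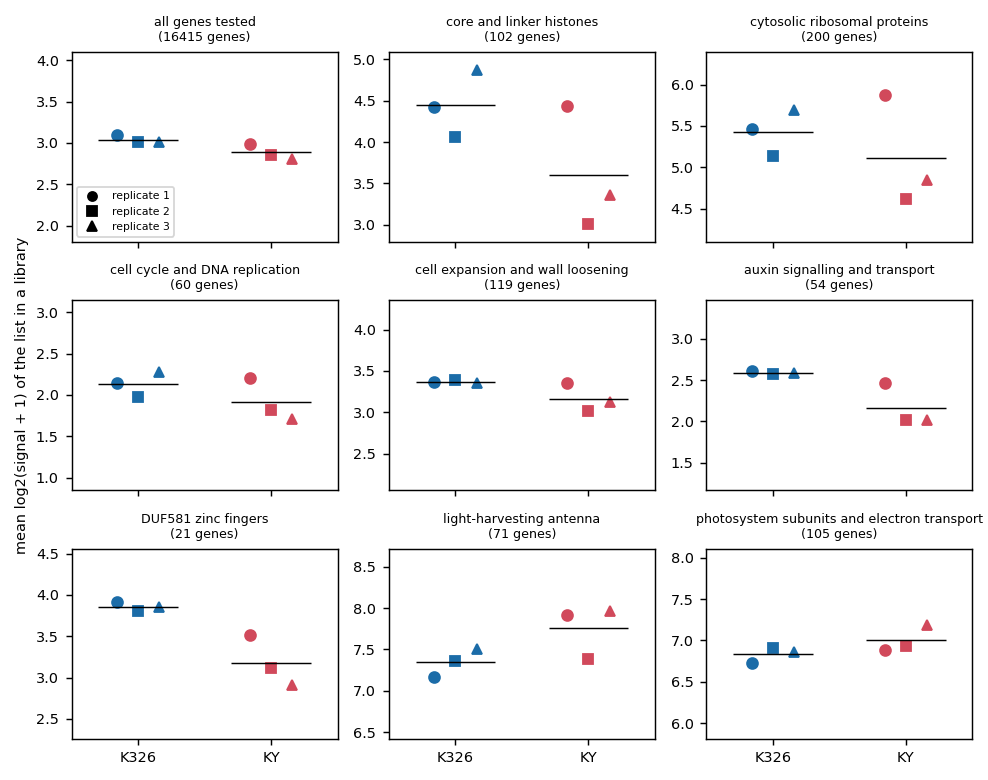
Mean log2(signal + 1) of all tested genes and of 8 gene lists in each library of K326 and KY, with the mean of each genotype as a line and replicates as symbols. In the histone and ribosomal panels KY replicate 1 (circle) is at 4.43 and 5.87 and KY replicates 2 and 3 are at 3.01 to 3.36 and 4.62 to 4.85, while in the antenna panel KY replicate 2 is the low KY library.

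The single genes given here were picked for the widest gaps in their lists, so they do not show its usual size. By the largest gap between KY replicate 1 and the mean of the other KY libraries, the histone H3 gene Nitab4.5_0000140g0010 had 15.8, 12.2 and 16.7 in K326 and 16.6, 0 and 3.89 in KY. A cyclin gene, Nitab4.5_0009759g0010, of the regulators of the cell cycle, had 4.1, 3.87 and 5.19 against 11, 2.01 and 1.97. An expansin gene, Nitab4.5_0001326g0130, which loosens cell walls, had 7.55, 6.99 and 14.4 against 12.2, 0.67 and 1.76. In all 3 the first KY library was within or above the K326 range and the others were below it, which follows in part from that choice. In the ribosomal protein S21e gene Nitab4.5_0000960g0040, signal appeared in K326 replicate 3 at 17.4 and KY replicate 1 at 24.8, while the other K326 and KY libraries had 0 to 0.87. The pectinesterase gene Nitab4.5_0009489g0010 had 0, 0 and 9.02 in K326 and 16.9, 0 and 5.91 in KY, so KY replicate 3 also had signal.

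Lists of other tissues were also compared. The 29 flower and pollen genes, mostly described by an Ole e 1 allergen/extensin domain, summed to 830, 780 and 999 in K326 and 1027, 414 and 609 in KY, with 0 called by limma, 0 higher and 5 lower at an unadjusted p below 0.05, and a median of -0.41 (-0.62 without KY replicate 1). They followed the split of the growth lists, with KY replicate 1 high. The 8 root and nicotine synthesis genes summed to 164, 150 and 139 against 95.5, 153 and 126, and the 28 vascular and lignin genes to 252, 181 and 283 against 236, 164 and 136, with 0 called in either and 2 lower and 0 lower at an unadjusted p below 0.05. The part of tissue makeup in the growth lists was not tested.

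Of the 121 genes called only without KY replicate 1, 29 were higher and 92 lower in KY replicates 2 and 3. In 89 of the 121, KY replicate 1 lay on the K326 side of both other KY libraries and within the range of the other libraries. These genes are called only without KY replicate 1, so that position follows largely from the choice. The genes given here were chosen after their values were seen, and adjusted p-values are those without KY replicate 1. Asparagine synthase, Nitab4.5_0008156g0030, which stores nitrogen as asparagine, had 2.22, 0.61 and 0.86 in K326 and 0.98, 18.8 and 20.4 in KY (3.27, adjusted p = 0.0165). A dormancy/auxin associated gene, Nitab4.5_0005982g0020, had 3.89, 2.55 and 1.38 against 1.31, 46.4 and 21.6 (3.25, adjusted p = 0.0367). In both, KY replicate 1 was within or just below the range of K326, and the other KY libraries were many times higher. A gene with a DUF3700 domain, Nitab4.5_0002066g0110, had more signal, at 58.4, 64.2 and 26.3 against 35.9, 494 and 377 (3.19, adjusted p = 0.0328).

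The beta subunit of the AMP-activated kinase family, Nitab4.5_0001925g0200, part of the plant energy sensor SnRK1, had 9.74, 9.06 and 9 in K326 and 6.41, 36.8 and 37.4 in KY (1.89, adjusted p = 0.00633). A trehalose-phosphatase gene, Nitab4.5_0026486g0010, whose product removes the sugar signal trehalose-phosphate, had 1.11, 1.33 and 1.04 against 1.11, 5.26 and 4.03 (1.38, adjusted p = 0.0416). KY replicate 1 did not share the higher values in either gene. Aquaporins, the water channels, were called in both directions: Nitab4.5_0011193g0010 had 52.6, 53 and 40.9 against 23, 134 and 145 (1.50, adjusted p = 0.0281), and Nitab4.5_0003155g0010 had 454, 392 and 432 against 512, 218 and 216 (-0.97, adjusted p = 0.0382).

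Among the genes lower only without KY replicate 1 were single genes of the cytoskeleton, chromatin and the ribosome. Alpha tubulin, Nitab4.5_0003624g0030, a building block of microtubules, had 213, 240 and 241 in K326 and 186, 66.9 and 97.8 in KY (-1.50, adjusted p = 0.0372). Histone H4, Nitab4.5_0000022g0390, had 60.6, 51.9 and 98.8 against 49, 11.8 and 12.4 (-2.39, adjusted p = 0.0306). Ribosomal protein L28e, Nitab4.5_0004848g0090, had 223, 165 and 273 against 201, 59.9 and 75.6 (-1.67, adjusted p = 0.0465). In each, KY replicate 1 was near or within the range of K326 and the other KY libraries were well below it. A gibberellin regulated gene, Nitab4.5_0000201g0290, had 13.6, 19.6 and 12.5 against 21.1, 4.25 and 4.26 (-1.60, adjusted p = 0.0407). A TCP transcription factor gene, Nitab4.5_0005709g0020, of a family that controls cell division in leaves, had 4.93, 5.15 and 7.27 against 5.83, 1.58 and 1.49 (-1.40, adjusted p = 0.0471).

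Auxin genes had a median below that of all tested genes. Of 54 tested genes of auxin signalling and transport, 0 were called higher and 2 lower, 9 lay above 0 against 30.5% of all tested genes, and the median was -0.39 (-0.48 with 4 called lower in KY replicates 2 and 3). An AUX/IAA gene, Nitab4.5_0007553g0010, of the repressors that auxin removes, fell from 4.04, 6.89 and 3.17 to 0 in all KY libraries (-2.46, SE 0.27, adjusted p = 0.0121). An auxin efflux carrier gene, Nitab4.5_0007384g0040, fell from 2.44, 4.54 and 2.75 to 0, 0.21 and 0.15 (-1.89, adjusted p = 0.0297). Both were near 0 in Y as well. The first lost its call without K326 replicate 1 (adjusted p = 0.0726) or KY replicate 2 or 3 (adjusted p = 0.0505 and 0.0799), and the second without any 1 library other than KY replicate 1, at adjusted p-values of 0.0818 to 0.149.

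The mean of the list was 2.61, 2.57 and 2.59 in K326 and 2.46, 2.02 and 2.02 in KY, so that all KY libraries lay below all K326 libraries. The same order held over all tested genes, at smaller distances, with 3.09, 3.01 and 3.01 in K326 and 2.99, 2.85 and 2.81 in KY. The 53 small auxin-induced genes had a median of -0.39 and 0 calls by limma, with 2 higher and 4 lower at an unadjusted p below 0.05, and 1 called lower without KY replicate 1. Their members with the highest signal did not pass the test, at 32.9, 20.9 and 22.1 against 37.1, 36.3 and 69.4 (Nitab4.5_0010792g0020, 0.85, adjusted p = 0.452) and 37.2, 42 and 30.2 against 23.4, 19.9 and 21.9 (Nitab4.5_0000319g0260, -0.71, adjusted p = 0.258).

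DUF581 genes, whose zinc finger proteins bind SnRK1 in Arabidopsis, had a median well below that of all tested genes. Of 21 tested, 20 lay below 0, 0 were called by limma, 0 were higher and 10 lower at an unadjusted p below 0.05, and the median was -0.66. The list mean was 3.91, 3.8 and 3.85 in K326 and 3.51, 3.12 and 2.91 in KY, without overlap and with KY replicate 1 nearest to K326. The mean over all tested genes did not overlap either, as given above. Without KY replicate 1, 2 lay above 0 and 5 were called lower, among them Nitab4.5_0005823g0010, with 125, 124 and 122 in K326 and 121, 67.7 and 57.5 in KY (-0.97, adjusted p = 0.0434). The median was between -0.85 and -0.48 in the alternatives.

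Late embryogenesis and dehydration genes, which protect drying cells, had 0 calls by limma among 72, 0 higher and 14 lower at an unadjusted p below 0.05, and a median of -0.40. The dehydrin with the highest signal, Nitab4.5_0000588g0250, had 799, 870 and 500 in K326 and 481, 596 and 364 in KY (-0.58, adjusted p = 0.532). The 57 small heat shock genes had 0 calls (1 higher without KY replicate 1), 1 higher and 11 lower at an unadjusted p below 0.05, and a median of -0.31. The 7 terpene synthases had the median nearest to that of histones, -0.81, with 0 calls and 2 lower at an unadjusted p below 0.05. Their gene with the highest signal, Nitab4.5_0009618g0010, had 23.9, 34.4 and 17.7 in K326 and 12.8, 6.96 and 6.86 in KY, without overlap (-1.42, adjusted p = 0.213).

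Genes of nitrogen and carbon stores had few calls. Among 29 nitrogen assimilation genes 0 were called, 2 were higher and 0 lower at an unadjusted p below 0.05, and the median was 0.10. Without KY replicate 1 it was 0.19 with 1 called higher, the asparagine synthase gene given above, while it was 0.03 and -0.02 without KY replicate 2 or 3 and -0.01 without K326 replicate 3. Glutamine synthetase, which captures ammonium, had 823, 904 and 994 in K326 and 1076, 1189 and 1219 in KY in its most abundant gene, without overlap (Nitab4.5_0000059g0010, 0.36, adjusted p = 0.441). Among 27 starch genes 0 were called, 1 was higher and 5 lower at an unadjusted p below 0.05, and the median was -0.06 (-0.12 with 1 called lower without KY replicate 1). The SWEET gene was the 1 call among 31 genes of sucrose metabolism and sugar export, whose median was -0.03 (0.05 without KY replicate 1). The 28 autophagy genes and 15 papain-type proteases, which recycle cell contents in ageing leaves, had 0 calls, with 1 lower and 0 higher in each at an unadjusted p below 0.05 and medians of -0.02 and -0.16 (0.03 and -0.07 without KY replicate 1).

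**Figure D5:**
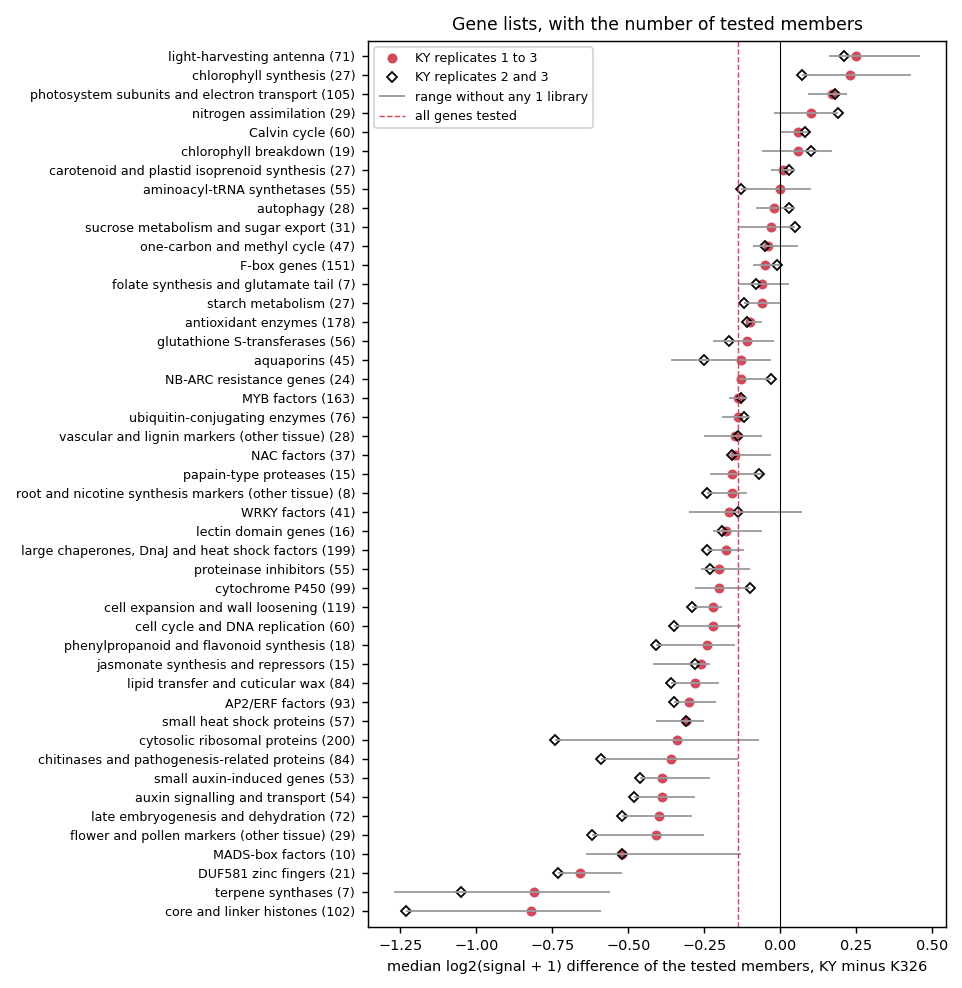
Median difference between KY and K326 on the log2(signal + 1) scale of the tested members of 46 gene lists, with all 6 libraries (filled circles), with KY replicates 2 and 3 alone (diamonds) and as the range over leaving out any 1 library (grey lines). The dashed line marks the -0.14 of all tested genes; antenna, chlorophyll synthesis and photosystem genes are at 0.17 to 0.25, and histones, terpene synthases and DUF581 genes at -0.82 to -0.66.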

How the data were processed

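Expression was measured by RNA sequencing of total RNA from leaf, 3 libraries each of K326, Y and KY. The authors deposited 1 table of an expression signal per gene and library, whose unit and scaling are not named; HISAT2, StringTie and RSEM are given, without version or role, per the submitters' processing notes. Of the genome build and the counting, nothing is given in the sources used here. A count test had been planned in case the table held counts. Since the deposited signal is no count, values were transformed as log2(signal + 1), a pseudocount of 1. Genes that averaged 1 or more in the 6 libraries of K326 and KY were fitted with limma 3.58.1 (empirical Bayes with a mean-variance trend) in R 4.3.3, with 1 mean per genotype. Adjustment over tests was that of Benjamini and Hochberg, across all 16415 genes, with calls at values below 0.05. Tables were made with Python 3.11.15 and pandas 2.3.3. The procedure was tested on simulated data. Alternatives were pseudocounts of 0.5 and 0.1, no filter, a mean of 5 or more, 3 other scalings, 9 libraries, a replicate block, no trend, robust fitting and each library left out.

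The comparison, the gene lists and the tests were chosen with earlier results of these data known, and the patterns of the 46 lists were narrowed on the descriptions of the table, so a list's direction is no independent evidence. Lists were described by counts and medians, with no test of their own. Named genes are all dihydroneopterin aldolases; the 12 highest and 12 lowest differences among called, described genes that averaged 5 or more in the higher genotype, without overlap; in each list up to 2 called members, by smallest adjusted p, or, with no call, up to 2 with the highest signal; transketolases; and the widest gaps of KY replicate 1 in the growth lists. The difference between KY and Y came from a fit of all 9 libraries. Same-numbered replicates did not deviate together (correlations of -0.11, 0.18 and -0.07), so they were not paired. Between unlike numbers the correlations ran from -0.31, for K326 replicate 3 with KY replicate 2, to 0.32, for K326 replicate 3 with KY replicate 1. A reference table of 79372 tobacco genes shared 0 identifiers with the table, and no sequences or coordinates are given.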

Additional observations from a re-analysis of the deposited data

How the results depend on the processing

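The 2 counts and the genes picked by the naming rule were recomputed in 18 alternatives, and the list medians with them; the alternative without both KY replicate 1 and K326 replicate 3 was chosen after seeing the data. Against 27 higher and 73 lower, 15 were called higher with no filter on low values, 12 higher and 34 lower at a mean of at least 5, and 9 higher and 43 lower without KY replicate 1 and K326 replicate 3. Leaving out 1 library gave 10 to 55 higher and 44 to 156 lower. With a replicate block, 4 were called higher and 37 lower, all among the 100, and 18 of the 35 called genes picked by that rule lost their call; replicate numbers are not known to pair plants. The causes were not tested. Of those 35 genes, which leave out genes chosen after their values were seen, 13 were called in every alternative, 22 lost the call in at least 1, and 0 changed direction. Of 826 alternative list medians, 52 moved by more than the spread between replicates. Read depth is unknown, so no interval or lower limit of detection is given.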
